A study of Homo sapiens with 15 samples.

Results

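The ID genes and their companions among the SMADs were followed in ZJ-101-treated spheroids of MDA-MB-231, an established triple-negative breast cancer line. The 7 genes are ID1, ID2, ID3 and ID4, which encode the inhibitor of DNA binding proteins, SMAD6 and SMAD7, which encode the inhibitory SMADs, and SMAD9, which encodes a SMAD activated by bone morphogenetic protein (BMP) receptors. They are 7 of the 59608 gene symbols in the table of the whole series, and all 7 passed the filter on low values, which kept 15233 genes averaging 10 or more normalised counts. They were chosen by their measured levels in these same groups, so their changes against vehicle are given as a description, with no p-value.

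ZJ-101 is a small molecule made by synthesis as a simpler relative of superstolide A, a macrolide from a sponge. After 72 h of formation in ultra-low attachment plates, spheroids were kept for 24 h with ZJ-101 at 0.5, 5, 50 or 500 nM, or with the vehicle, DMSO, in place of ZJ-101. Pooled spheroids made 1 biological replicate, here called a plate, with 3 plates and 3 libraries in each of the 5 groups. All groups came from 1 cell line, and the same 3 DMSO libraries served as the comparison for every dose. Values are normalised counts, that is reads per gene divided by the size factor of the library, and libraries held 7773325 to 10065633 reads in genes (median 9108870). In a bulk sample, fewer cells of a type and less RNA per cell cannot be told apart, and the errors given measure the spread between plates.

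Signals of the BMP branch of the TGF-beta family pass from type I and type II receptors to SMAD1, SMAD5 and SMAD9, which join SMAD4 and act on genes in the nucleus. ID1, ID2 and ID3 are among the best known direct targets of this branch. ID proteins have a helix-loop-helix domain but no DNA-binding region, and they hold E proteins and other basic helix-loop-helix (bHLH) factors away from DNA. SMAD6 and SMAD7 are induced by BMP or TGF-beta signals and act back on the receptors, SMAD6 mainly on the BMP branch and SMAD7 on both. In breast cancer cells the ID proteins are known for their part in self-renewal and spread to other organs.

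A total of 3 libraries stood apart from the others of their group by transcripts of fibroblasts. The summed level of 19 fibroblast markers was 5672 normalised counts in 0.5 nM replicate 2, 4195 in 5 nM replicate 2 and 4789.9 in 500 nM replicate 1, against 1245 and 1580.4 in the other 0.5 nM libraries, 1579.6 and 1149 in the other 5 nM libraries, 873 and 1027 in the other 500 nM libraries and 1275 to 1439.7 in DMSO. In the 50 nM libraries, none of which stood apart, it was 795 to 842. Outside the 3 libraries the sum was thus below DMSO at 50 and 500 nM, in the direction of the 7 genes. Of 13 tested fibroblast markers 3 fell at 50 nM by the limma call, beside 9.66% of all tested genes. At 500 nM 2 fell, COL6A3 (log2 fold change -2.39) and PDGFRB (-0.62), beside 16.2% of all tested genes. At either dose 0 rose by this call, beside 10.9% of all tested genes at 50 nM and 16.2% at 500 nM. With all libraries the median log2 fold change of the 13 was -0.10 at 50 nM and 0.56 at 500 nM. Markers of the cell line were high in all libraries: 8 such genes summed to 51364 to 52063 normalised counts at 500 nM and 46121 to 46623 in DMSO. Of 9 genes listed as low or absent in this line, ESR1 averaged 0.630 normalised counts or less and PGR was at 0 in every group, but others were not low. KRT8 averaged 11671 at 500 nM and 10850.0 in DMSO, KRT18 averaged 5461 at 500 nM and 4159 in DMSO, and EPCAM 292 at 500 nM and 226 in DMSO, all 3 called higher at 500 nM by limma, with overlapping values for KRT8. The sum of the 9 was 18321 to 19141 at 500 nM and 16068 to 17116 in DMSO. Among 9 endothelial markers, whose sum was 1025 to 1075 normalised counts at 500 nM and 671 to 742 in DMSO, only PECAM1, KDR and ESAM were expressed highly enough to be tested, and the defining marker CDH5 averaged 0 at 500 nM and 0.636 in DMSO. Among 10 blood cell markers, the sum was 85.0 to 91.7 at 500 nM and 138 to 157 in DMSO, and the pan-leukocyte gene PTPRC averaged 0.697 at 500 nM and 1.67 in DMSO. The part of these marker levels in the results was not tested, other than by leaving out the 3 libraries.

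The promoters of 4 of the 7 genes are shown as examples, chosen with their SMAD-type words and their changes in view. A link between these words and the changes was not tested. Each line holds 300 bases of the RefSeq promoter on GRCh38.p14, with 250 bases before the annotated start of transcription and 50 after, written 5′ to 3′ on the strand of the gene. Capitals mark matches, on either strand, to GTCTAGAC (the palindrome bound by SMAD proteins), CAGAC (a shorter word bound by SMAD proteins) and GGCGCC or GGAGCC (GC-rich words bound by SMADs of the BMP branch). ID1 and ID3 are the genes with the largest decreases, ID2 has none of these words in its window, and SMAD6 has the palindrome.
ID1: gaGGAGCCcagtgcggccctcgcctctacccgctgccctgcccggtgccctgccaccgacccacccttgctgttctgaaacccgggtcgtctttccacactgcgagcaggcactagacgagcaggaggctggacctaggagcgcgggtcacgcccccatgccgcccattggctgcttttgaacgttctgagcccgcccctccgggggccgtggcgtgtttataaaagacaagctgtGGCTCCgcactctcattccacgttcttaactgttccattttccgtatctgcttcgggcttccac
ID3: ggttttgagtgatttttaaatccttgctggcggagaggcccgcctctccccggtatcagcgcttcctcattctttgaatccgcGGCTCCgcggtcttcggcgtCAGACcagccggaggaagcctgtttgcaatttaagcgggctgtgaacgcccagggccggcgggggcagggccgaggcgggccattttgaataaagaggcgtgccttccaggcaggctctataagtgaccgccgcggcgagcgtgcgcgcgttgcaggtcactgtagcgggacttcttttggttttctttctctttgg
ID2: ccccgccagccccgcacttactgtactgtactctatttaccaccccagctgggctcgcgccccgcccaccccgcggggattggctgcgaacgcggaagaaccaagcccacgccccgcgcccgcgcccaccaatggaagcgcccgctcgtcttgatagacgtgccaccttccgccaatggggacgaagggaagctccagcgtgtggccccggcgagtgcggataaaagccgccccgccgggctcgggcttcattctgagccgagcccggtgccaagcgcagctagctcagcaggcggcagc
SMAD6: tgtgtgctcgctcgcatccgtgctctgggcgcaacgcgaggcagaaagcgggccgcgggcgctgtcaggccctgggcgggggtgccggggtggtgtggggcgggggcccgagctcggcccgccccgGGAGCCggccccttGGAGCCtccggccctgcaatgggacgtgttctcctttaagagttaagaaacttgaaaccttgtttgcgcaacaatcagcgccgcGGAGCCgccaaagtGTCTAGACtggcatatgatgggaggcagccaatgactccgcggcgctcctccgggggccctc
These windows lie at chr20:31605039-31605338 on the plus strand for ID1, chr1:23559452-23559751 on the minus strand for ID3, chr2:8681806-8682105 on the plus strand for ID2 and chr15:66701986-66702285 on the plus strand for SMAD6.

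In the ID1 window GGAGCC began 248 and 14 bases before the start, and TATAAA, on one strand or the other, 33 and 31 bases before it. The ID3 window held GGAGCC at 167 and CAGAC at 147 bases before the start. The ID2 window held the CCAAT box 172, 122 and 78 bases before the start and an E-box (CANNTG, the site of bHLH factors) 205 bases before it. In the SMAD6 window the palindrome began 12 bases before the start and GGAGCC stood at 124, 110 and 26 bases before it. Among 35116 promoter windows of the same length, 0.202% held the palindrome, 45.3% CAGAC, 36.0% GGAGCC and 19.2% GGCGCC, counting both strands and allowing overlaps between words. Of the 7 genes, 1 had the palindrome, 4 CAGAC, 6 GGAGCC and 0 GGCGCC in at least 1 of their windows. These counts are per gene, whereas the shares are per window. SMAD7 had 3 windows, and its GGAGCC stood only in window 3, within the gene at chr18:48942758-48943057. Sequence outside the windows was not searched. A match is a description of the letters and was not tested as a binding site.

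ID1, the most highly expressed of the 4 ID genes, was 10.3 times lower at 500 nM (log2 fold change -3.36, SE 0.040, 95% interval -3.44 to -3.28). It had 282, 294 and 311 normalised counts in the 500 nM libraries, against 3069.9, 2891 and 3159 in the DMSO libraries. The groups lay far apart, and the 3 treated plates differed little among themselves. Across the lower doses ID1 had 2997, 2943 and 2799 with 0.5 nM, 3209, 3126 and 3183 with 5 nM and 1538, 1582 and 1547 with 50 nM. ID1 was therefore near the vehicle level up to 5 nM, 1.95 times lower at 50 nM and lower again at 500 nM. The gene lies at chr20:31605283-31606515 on the plus strand (hg38, GENCODE 44).

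ID3, whose product is the nearest partner of ID1 in function and is often induced with it, was 10.9 times lower at 500 nM (log2 fold change -3.45, SE 0.11, 95% interval -3.70 to -3.20). It had 130.1, 189.9 and 187 normalised counts in the 500 nM libraries, against 1881, 1793 and 1821 in the DMSO libraries. The lowest of the treated values came from replicate 1, the library with the high fibroblast sum, and without it the log2 fold change of ID3 was -3.27. At the lower doses ID3 had 1745, 1824 and 1789 with 0.5 nM, 1815, 1759 and 1793 with 5 nM and 1084, 1061 and 1093 with 50 nM. The 50 nM values were below all DMSO values, with a 1.70 times lower level. ID3 lies at chr1:23557926-23559501 on the minus strand.

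ID2, an ID protein also known for binding the retinoblastoma protein, was 6.25 times lower at 500 nM (log2 fold change -2.64, SE 0.12, 95% interval -2.89 to -2.40). Its normalised counts were 36.9, 31.2 and 27.5 in the 500 nM libraries, against 199, 218 and 193 in the DMSO libraries. The groups were far apart. ID2 had 161, 162 and 220.0 with 0.5 nM, 183, 189 and 209.6 with 5 nM and 94.98, 103 and 105 with 50 nM. Only the 50 nM libraries lay wholly below DMSO among these 3 doses, with a 2.00 times lower level. ID2 lies at chr2:8678845-8684461 on the plus strand, where 6.55% of its exon bases are overlapped by the antisense gene ID2-AS1, which had 0 to 6.65 normalised counts. Since the strand setting of the counting is not given in the sources used here and 22.6% of the 31-base words of ID2 occur elsewhere in the genome, its level is less certain than that of ID1 or ID3.

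ID4, which differs from the other ID proteins in its tissue range and can oppose them in some cells, was expressed at low levels in these spheroids. Its normalised counts were 6.15, 2.83 and 6.88 in the 500 nM libraries, against 18.5, 33.4 and 34.2 in the DMSO libraries. The groups did not overlap, but the treated values rest on 3 to 6 reads a library. The level was 4.78 times lower at 500 nM (log2 fold change -2.26, SE 0.30, 95% interval -2.85 to -1.66). This is on the scale of log2(normalised count + 1), which understates the change of so low a gene. ID4 had 29.8, 26.2 and 37.2 with 0.5 nM, 31.1, 50.1 and 24.4 with 5 nM and 10.3, 16.3 and 13.3 with 50 nM. The 50 nM values were below all DMSO values, although the lowest DMSO plate was close to them. ID4 lies at chr6:19837370-19842197 on the plus strand.

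**Figure D1:**
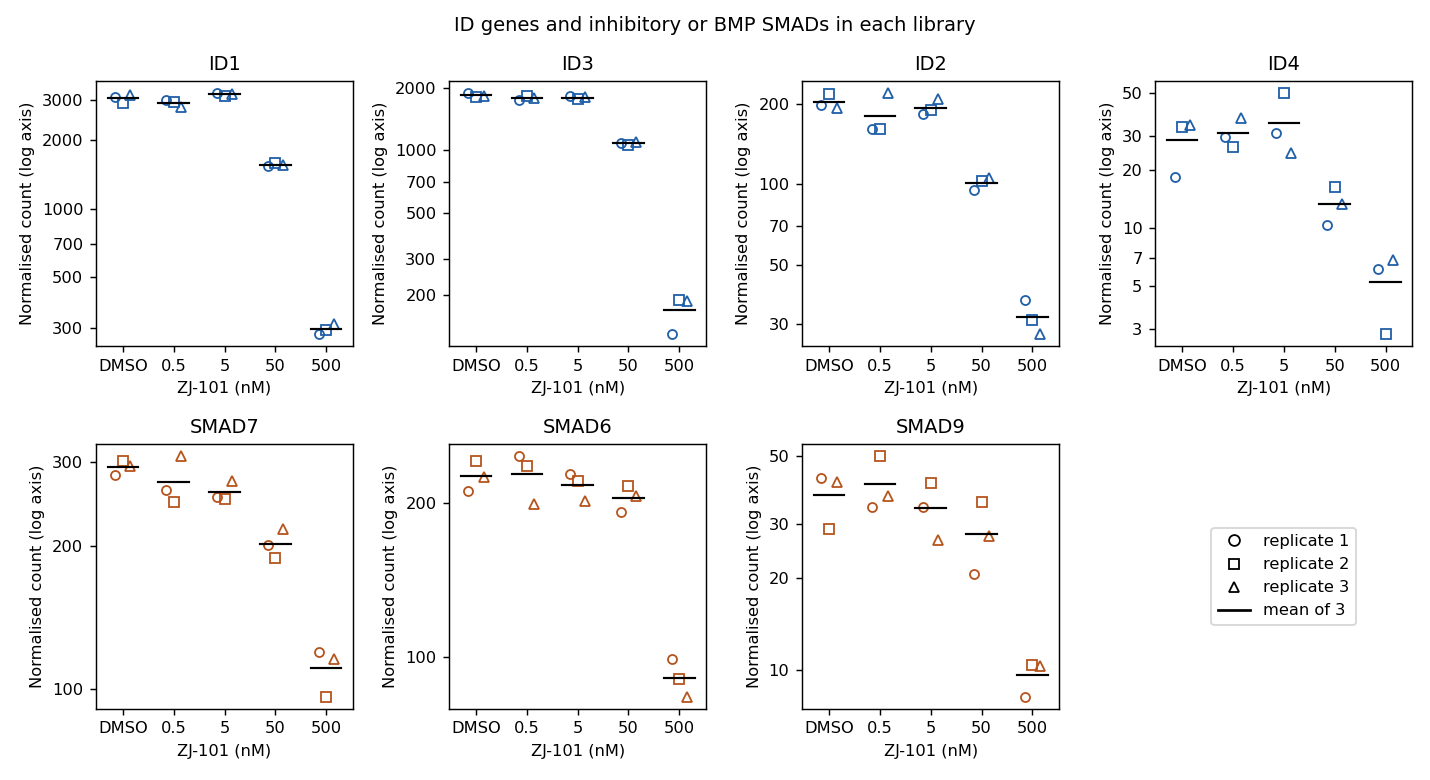
Normalised counts (log axis) of the 7 genes in each library by ZJ-101 dose, with 1 symbol per plate and a bar for the mean of 3. ID1 stands at 282 to 311 at 500 nM and at 2891 to 3159 in DMSO, and SMAD6 overlaps DMSO up to 50 nM.

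SMAD6, the inhibitory SMAD of the BMP branch, was 2.46 times lower at 500 nM (log2 fold change -1.30, SE 0.098, 95% interval -1.50 to -1.11). Its normalised counts were 99.4, 90.7 and 83.7 in the 500 nM libraries, against 211, 242 and 225 in the DMSO libraries. The groups did not overlap at this dose. SMAD6 had 248, 237 and 199.5 with 0.5 nM, 228, 221 and 202 with 5 nM and 193, 216 and 207 with 50 nM. Each of these lower doses overlapped DMSO, and the 50 nM log2 fold change was -0.14 (95% interval -0.33 to 0.06). SMAD6 lies at chr15:66702236-66782849 on the plus strand.

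SMAD7, the inhibitory SMAD that acts on both the TGF-beta and the BMP receptors, was 2.63 times lower at 500 nM (log2 fold change -1.40, SE 0.092, 95% interval -1.58 to -1.21). Its normalised counts were 119.9, 96.3 and 116 in the 500 nM libraries, against 281, 301 and 294 in the DMSO libraries. SMAD7 had 261, 247 and 309 with 0.5 nM, 253, 251 and 274 with 5 nM and 200.3, 188 and 217 with 50 nM. SMAD7 was the only one of the 7 genes whose 5 nM libraries all lay below DMSO, with a log2 fold change of -0.17 (95% interval -0.35 to 0.01). At 50 nM it was 1.45 times lower. SMAD7 lies at chr18:48919853-48950965 on the minus strand.

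SMAD9, also called SMAD8, had, per length, the lowest level of the SMADs activated by BMP receptors in these spheroids. Its normalised counts were 8.20, 10.4 and 10.3 in the 500 nM libraries, against 42.5, 28.9 and 41.2 in the DMSO libraries. The groups did not overlap, and the level was 3.59 times lower (log2 fold change -1.84, SE 0.25, 95% interval -2.33 to -1.36). As for ID4, the scale of log2(normalised count + 1) understates this change. SMAD9 had 34.3, 50.3 and 37.2 with 0.5 nM, 34.3, 40.8 and 26.6 with 5 nM and 20.7, 35.4 and 27.5 with 50 nM. These doses overlapped DMSO, and the 50 nM log2 fold change was -0.43 (95% interval -0.92 to 0.06). SMAD9 lies at chr13:36844831-36920887 on the minus strand, and 6.90% of its 31-base words occur elsewhere in the genome.

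All 7 genes were below DMSO in every 500 nM library, where 20.4% of the tested genes lay wholly below DMSO. By the call used for all genes (limma, Benjamini-Hochberg adjusted p under 0.05, two-sided), 7 of 7 were lower at 500 nM, beside 16.2% of tested genes called lower and 16.2% called higher. At 50 nM 5 of the 7 were called lower and the same 5 lay wholly below DMSO (ID1, ID2, ID3, ID4 and SMAD7), beside 9.66% of tested genes called lower, 10.9% called higher and 16.0% lying wholly below. At 5 nM 0 of 7 were called and 1 lay wholly below, beside 3.28% called lower, 3.63% called higher and 10.2% lying wholly below. At 0.5 nM 0 of 7 were called, beside 0.00656% called lower and 0.0656% called higher. At both of these doses 0 of 7 had an unadjusted limma p under 0.05, and edgeR and DESeq2 called 0 of 7 as well. Nothing is read from these shares, since the levels in these groups chose the genes. The median log2 fold change of the 7 genes was -2.26 at 500 nM and -0.76 at 50 nM, where the medians of all tested genes were -0.000231 and -0.00446.

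The size of the decrease differed among the 7 genes. On the log2 scale ID3 ranked 4 and ID1 ranked 5 from the lowest of the 15233 tested genes at 500 nM, followed by ID2 at rank 17, ID4 at 34 and SMAD9 at 59. SMAD7 ranked 135 and SMAD6 ranked 163. Low ranks follow from the choice of the genes by these levels, so the ranks are a description only. The ID genes at 500 nM retained 9.23% (ID3), 9.72% (ID1), 15.7% (ID2) and 18.4% (ID4) of their DMSO mean. The SMADs retained 25.7% (SMAD9), 37.9% (SMAD7) and 40.4% (SMAD6). These percentages compare plain means, so for ID4 and SMAD9 they show larger decreases than the log2 fold changes and ranks do. The intervals of ID1 and ID3 overlapped each other and lay wholly below those of the other 5 genes, and the intervals of SMAD6 and SMAD7 overlapped each other.

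The share of the 500 nM change that was reached at 50 nM varied as well, given here as point values without an error. At 50 nM ID4 had reached 45.4% of its log2 change at 500 nM, SMAD7 38.1% and ID2 37.8%. For ID1 this share was 28.7%, for SMAD9 23.3% and for ID3 22.1%. SMAD6 had reached 10.5%. In the step between 5 and 50 nM, 5 of the 7 genes were called lower (all but SMAD6 and SMAD9), beside 8.96% of tested genes. SMAD9 was at -0.29 on the log2 scale (95% interval -0.77 to 0.20) and SMAD7, which was called, at -0.36 (-0.54 to -0.18). These intervals overlapped, so the calls do not separate the 2 genes. In the step between 50 and 500 nM all 7 were called lower, beside 7.04% of tested genes. Their log2 fold changes were -2.69 for ID3, -2.39 for ID1, -1.65 for ID2, -1.41 for SMAD9, -1.23 for ID4, -1.16 for SMAD6 and -0.87 for SMAD7. Nothing is read from the shares in these steps either, since the levels in these groups chose the genes. In the step between 0.5 and 5 nM ID1 was called higher by 0.12 on the log2 scale, beside 3.69% of tested genes, and this call was lost without 0.5 nM replicate 2 or 3, without 5 nM replicate 1 or 3, without the 3 libraries with fibroblast transcripts and with no filter on low values.

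**Figure D2:**
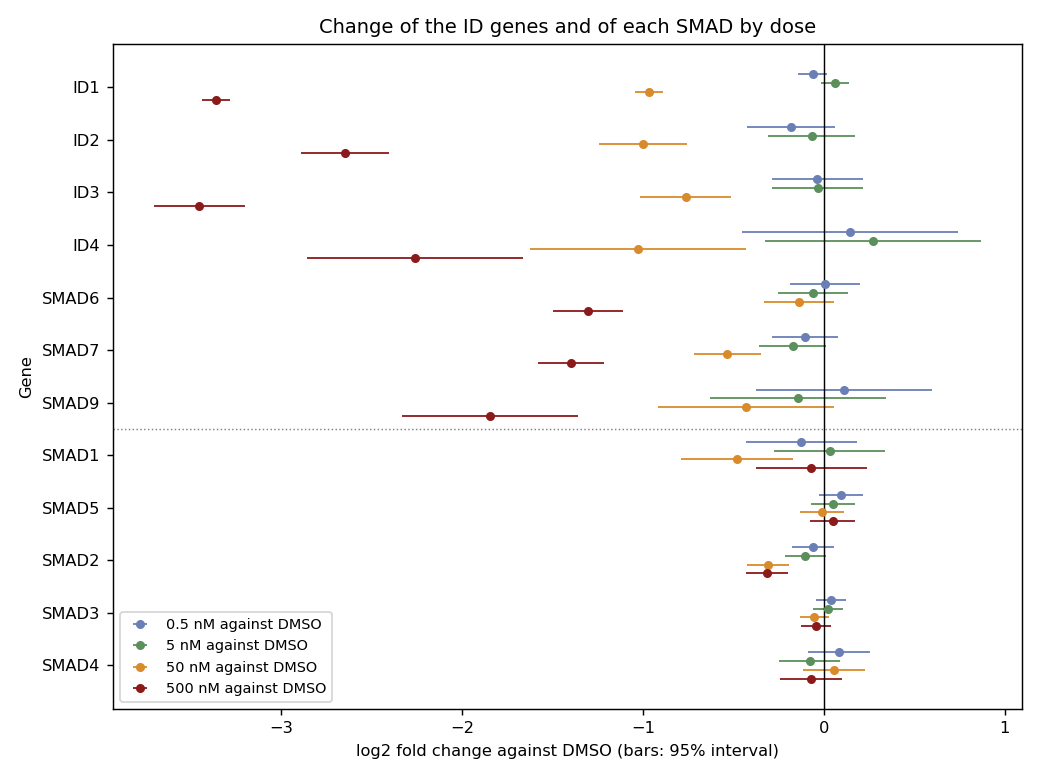
Log2 fold change against DMSO (x axis) of the 7 genes, above the dotted line, and of SMAD1 to SMAD5, below it, with 1 colour per dose and bars for the 95% interval. ID1 reaches -3.36 and SMAD6 -1.30 at 500 nM, while SMAD5 lies at 0.05.

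Set against the length of the canonical transcript, the order of the genes changed with treatment. At 500 nM ID1 stood at 301 ± 14.8 normalised counts per kb (SD, n = 3), ID3 at 178 ± 35.4, SMAD7 at 33.1 ± 3.76, ID2 at 24.5 ± 3.63, SMAD6 at 23.8 ± 2.05, SMAD9 at 1.73 ± 0.224 and ID4 at 1.37 ± 0.557. In DMSO the order was ID1 at 3093 ± 139, ID3 at 1928 ± 47.2, ID2 at 156 ± 9.92, SMAD7 at 87.4 ± 3.02, SMAD6 at 59.1 ± 4.03, ID4 at 7.41 ± 2.28 and SMAD9 at 6.75 ± 1.35. ID2 thus stood above SMAD7 in DMSO and below it at 500 nM, where ID2 and SMAD6 did not differ beyond their spread. ID4 and SMAD9 did not differ beyond their spread in either group.

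The normalised counts of the 4 ID genes together were 502 ± 41.0 at 500 nM and 5104 ± 147 in DMSO (SD, n = 3 each). ID1 made up 59.0 ± 2.65% of this sum at 500 nM and 59.5 ± 1.05% in DMSO, a difference smaller than the spread between plates. The ratio of ID1 to ID2 was 9.45 ± 1.83 at 500 nM and 15.02 ± 1.58 in DMSO. The ratio of SMAD7 to SMAD6 was 1.29 ± 0.0455 in DMSO, 0.986 ± 0.0990 at 50 nM and 1.22 ± 0.161 at 500 nM.

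SMAD1 and SMAD5, the other SMADs activated by BMP receptors, were not among the chosen genes. Since the choice rested on levels in these same groups, being left out of it depends on the same values. The adjusted p-values of SMAD1 to SMAD5 are therefore a description, and no contrast with SMAD9 is drawn from them. SMAD5 had 590.2, 536 and 587 normalised counts in the 500 nM libraries, against 494, 627 and 540.4 in the DMSO libraries, and did not pass the test (log2 fold change 0.05, 95% interval -0.07 to 0.17, limma adjusted p = 0.598). SMAD1 had 64.5, 77.5 and 69.9 in the 500 nM libraries, against 81.7, 64.1 and 77.3 in the DMSO libraries (log2 fold change -0.07, 95% interval -0.38 to 0.24, limma adjusted p = 0.781). SMAD1 fell at 50 nM, to 52.7, 52.6 and 53.1 (log2 fold change -0.48, limma adjusted p = 0.0163), below all DMSO plates. Per kb of transcript SMAD9 made up 1.63 ± 0.221% of the 3 BMP-activated SMADs at 500 nM and 6.15 ± 1.47% in DMSO, and SMAD5 made up 76.3 ± 2.63% at 500 nM and 71.3 ± 5.23% in DMSO.

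SMAD4, the shared partner of both branches, had 218, 272 and 235 normalised counts at 500 nM, against 231, 277 and 253 in DMSO (log2 fold change -0.07, limma adjusted p = 0.58). SMAD3, activated by TGF-beta and activin receptors, had 1422, 1346 and 1369 at 500 nM, against 1441, 1461 and 1359 in DMSO (log2 fold change -0.04, limma adjusted p = 0.488). Neither passed the test, and both overlapped DMSO. SMAD2, activated by the same receptors as SMAD3, fell to 532, 515 and 537 at 500 nM, against 647, 675 and 648 in DMSO (log2 fold change -0.31, limma adjusted p = 3.01e-06). Its 50 nM change was also -0.31 on the log2 scale.

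**Figure D3:**
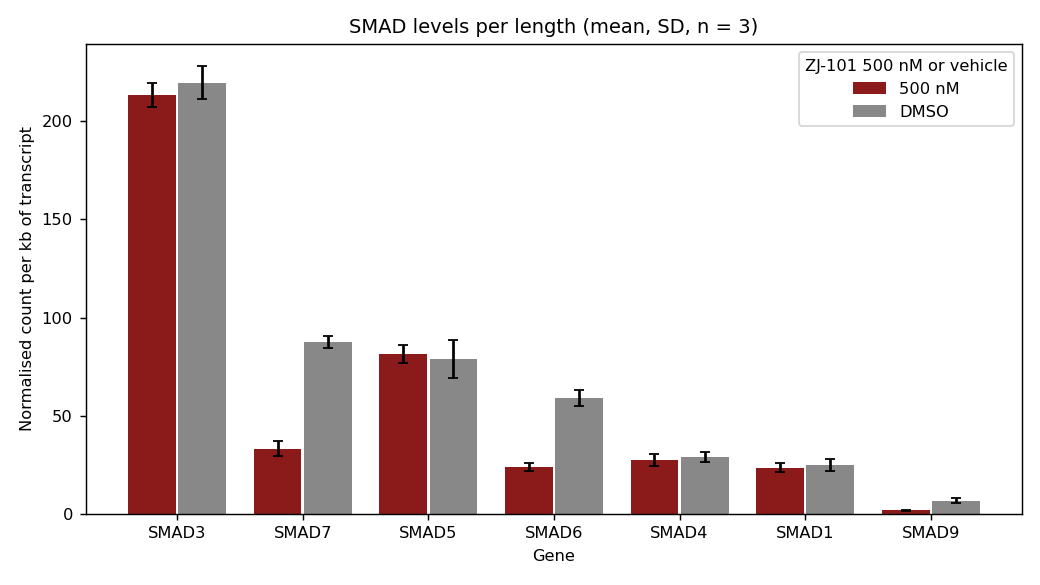
Mean normalised count per kb of canonical transcript (y axis from 0, bars with SD, n = 3) of 7 SMAD genes at ZJ-101 500 nM, left bar, and in DMSO, right bar. SMAD7 stands at 33.1 and 87.4 and SMAD3 at 213 and 219.7, and SMAD2 is left out because its canonical transcript is much longer than the others.

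The other genes of the pathway were counted in 13 lists drawn from general knowledge, with earlier results of these data known. The lists are therefore not independent of these data. Of their 237 genes, 155 were expressed highly enough to be tested. At 500 nM 48 of them fell and 29 rose by the limma call, with a median log2 fold change of -0.06, beside 16.2% of all tested genes lower and 16.2% higher. At 50 nM 36 fell and 22 rose, beside 9.66% and 10.9% of all tested genes. At 5 nM 11 fell and 11 rose, beside 3.28% and 3.63%, and at 0.5 nM 1 fell and 1 rose, beside 0.00656% and 0.0656%. The counts of single lists at 500 nM given next are small and are to be read beside the same 16.2% in each direction.

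Of the ligands of the BMP family, 2 fell and 1 rose of 7 tested. BMP4, the most highly expressed of them, rose to 5313, 5272 and 5048 normalised counts at 500 nM, against 4382, 4210.0 and 4113 in DMSO (log2 fold change 0.30, limma adjusted p = 4.55e-16). With 0.5 nM, by contrast, BMP4 had 3900, 3887 and 3856, below all DMSO values. BMP6 fell by 0.70 and GDF11 by 0.54 on the log2 scale. Of the TGF-beta and activin ligands 2 rose and 2 fell of 6 tested, with GDF15, a stress-induced member of the family, 2.82-fold higher and TGFB3 at a log2 fold change of -1.16.

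Of 13 tested receptors and co-receptors, 4 rose and 5 fell. TGFBR1, the type I receptor for TGF-beta, fell to 935, 1046 and 944 normalised counts at 500 nM, against 1727, 1901 and 1810.0 in DMSO (log2 fold change -0.89, limma adjusted p = 1.27e-35). BMPR2, the type II receptor for BMP ligands, fell by 0.48 on the log2 scale (limma adjusted p = 7.29e-16), and TGFBR2 rose by 0.42. Of 9 tested secreted antagonists, 2 rose and 3 fell. FST, whose product follistatin binds activin and some BMP ligands, rose to 124, 113 and 110.1 normalised counts at 500 nM, against 34.8, 21.7 and 33.1 in DMSO (log2 fold change 1.95, limma adjusted p = 1.57e-16), while BMPER was at -1.18 and CHRDL1 at -0.81, both called lower.

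Of 17 tested genes for SMAD turnover and dephosphorylation, 5 rose and 1 fell, with PPP1R15A, a phosphatase subunit also tied to type I receptors, at 0.51 and NEDD4L, a ubiquitin ligase for SMAD2 and SMAD3, at 0.36. Of 18 tested nuclear partners of SMADs, 2 rose and 9 fell. SKIL, a co-repressor that TGF-beta signals themselves induce, fell by 1.02, RUNX2 fell by 0.43, and TOB1, which binds SMADs of the BMP branch, rose by 0.57 on the log2 scale.

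Among 17 tested other targets of BMP signalling, 7 fell and 1 rose, with a median log2 fold change of -0.35. ATOH8, a bHLH factor induced with the ID genes in many cells, fell to 83.0, 84.1 and 92.9 normalised counts at 500 nM, against 449.8, 382 and 452 in DMSO (log2 fold change -2.29, limma adjusted p = 3.48e-48). UNC5B, a netrin receptor, fell to 10.2, 9.45 and 13.8, against 76.2, 80.4 and 62.3 (log2 fold change -2.61, limma adjusted p = 3.52e-21). The ATOH8 and UNC5B groups did not overlap. JUNB fell by 0.70, and ZNF703, a repressor linked to luminal breast cancer, rose by 0.69.

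Of 26 tested targets of TGF-beta through SMAD2 and SMAD3, 15 fell and 5 rose, with a median of -0.37. SNAI1, a repressor of epithelial genes, fell to 14.3, 15.1 and 10.3 normalised counts at 500 nM, against 125, 142 and 125 in DMSO (log2 fold change -3.22, limma adjusted p = 2.06e-32). LTBP3 fell by 0.93, COL7A1 by 0.86 and BHLHE40 by 0.75. The lists of BMP and TGF-beta targets share genes with each other, and a target may answer to other signals too.

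**Figure D4:**
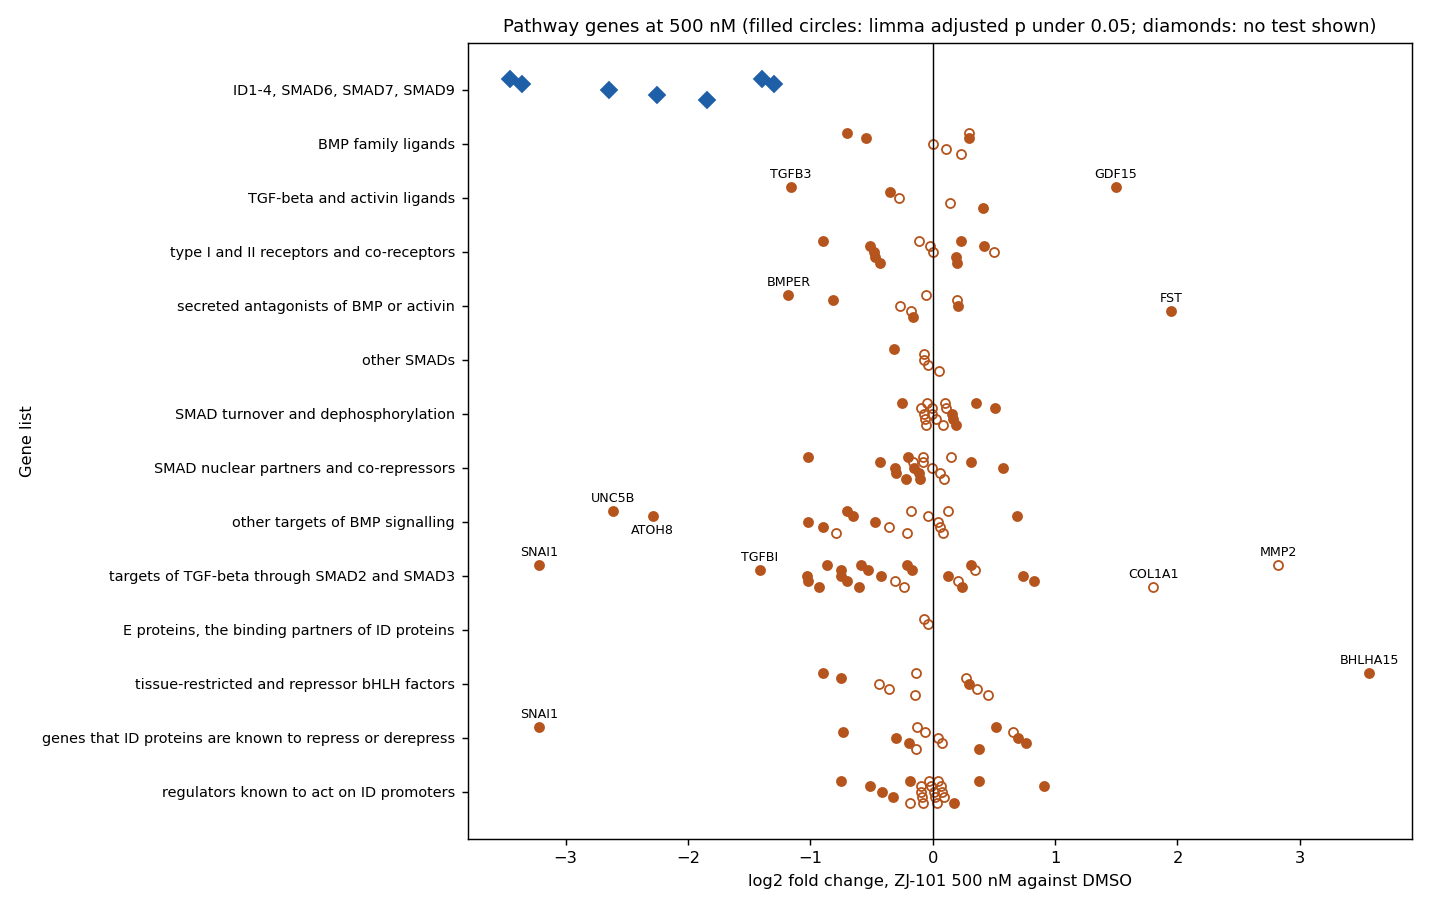
Log2 fold change at ZJ-101 500 nM against DMSO (x axis) of the 7 genes, drawn as diamonds, and of the tested genes of the 13 lists, drawn as circles that are filled where the limma adjusted p was under 0.05. The diamonds lie between -3.45 and -1.30, and SNAI1 at -3.22, UNC5B at -2.61 and ATOH8 at -2.29 are the labelled circles farthest to the left.

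The partners of ID proteins were also measured. The E protein gene TCF3 averaged 1089.5 normalised counts at 500 nM and 1121 in DMSO (limma adjusted p = 0.536). TCF12 averaged 415 at 500 nM and 437 in DMSO (limma adjusted p = 0.437). Neither passed the test, and the third E protein gene, TCF4, was too low to be tested. Of 11 tested bHLH factors 2 rose and 2 fell. BHLHA15, a factor of secretory cells also called MIST1, rose to 45.1, 66.1 and 58.5 normalised counts at 500 nM, against 3.27, 5.42 and 3.01 in DMSO (log2 fold change 3.57, limma adjusted p = 9.91e-12). HES1, a repressor downstream of Notch, fell by 0.89.

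Of 14 tested genes that ID proteins are known to repress or derepress, 4 rose and 4 fell. CDKN1A, which encodes the CDK inhibitor p21, fell to 1476, 1495 and 1472 normalised counts at 500 nM, against 2514, 2429 and 2432 in DMSO (log2 fold change -0.73, limma adjusted p = 1.24e-34). CCND1, which encodes cyclin D1, rose by 0.52. THBS1, an inhibitor of vessel growth, rose by 0.57 at 50 nM and fell by 0.30 at 500 nM. Of 22 tested regulators known to act on ID promoters, 3 rose and 5 fell, with STAT3 at -0.51, HIF1A at -0.32 and MYC at 0.37, all past the limma call.

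Finally, each of the 7 genes was set beside the tested genes with the most similar changes over the 4 doses, by the root mean square difference of the 4 log2 fold changes against DMSO, leaving out the other chosen genes. For both ID1 and ID3 the nearest was VCAM1, an adhesion molecule, at a distance of 0.23 and 0.32, with ISLR2 next at 0.30 and 0.33. For ID2 the nearest was COL15A1 at 0.14 and for ID4 it was TNC, which encodes tenascin C, at 0.085. SMAD6 lay nearest to ARMH4 at 0.055, with the receptor NOTCH3 at 0.095 and the laminin chain LAMC1 at 0.098. SMAD7 lay nearest to PCOLCE2 at 0.056, with ADRA2C at 0.057 and ANXA9 at 0.069. SMAD9 lay nearest to LGR5, a receptor for R-spondins, at 0.068, with LTBP1, which stores latent TGF-beta in the matrix, at 0.11. VCAM1 averaged 4.54 normalised counts at 500 nM and 35.6 in DMSO, so its profile rests on far fewer reads than that of ID1. ISLR2 was lower still, at 1.07 at 500 nM and 22.0 in DMSO. COL15A1 (6.06), PCOLCE2 (5.23), NOTCH3 (5.51) and LGR5 (6.80) were also low at 500 nM, which limits how closely their profiles can be placed.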

How the data were processed

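RNA of 15 MDA-MB-231 spheroid samples was analysed, in 5 groups of 3 taken from the sample labels. Per the study's methods, paired-end reads of poly(A) RNA were aligned to hg38 (HISAT2), assigned to genes (htseq-count) and compared with DESeq2, all on Galaxy. The annotation was the GENCODE release current at the time. Its number, the tool versions and the strand setting are not given in the sources used here, and the 2D cultures were not used here. The deposited signal values are the authors' gene counts after division by DESeq2 size factors, of which 100% were whole multiples of 1 step per library within 0.001, so reads could be recovered for count models. The authors deposited, too, their own DESeq2 comparisons of each dose with DMSO (mean, log2 fold change, standard error, Wald score, p-value and its adjusted form), which were not used.

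limma 3.58.1 (trend, robust) was fitted on log2(normalised count + 1) to the 15233 genes averaging 10 or more, with all 15 libraries in 1 model. Fold changes are on that scale, which understates changes of low genes. Calls were two-sided at a Benjamini-Hochberg adjusted p under 0.05 over all tested genes. Intervals are at 95%. The 7 genes and all lists were chosen with earlier results of these data known. The genes named are the 7, SMAD1 to SMAD5, up to 4 called genes per list, those of smallest p at 500 nM, and the 3 nearest profiles of each of the 7. ESR1, PGR, CDH5, PTPRC, TCF3, TCF12 and TCF4, and the 50 nM value of THBS1, fall outside this rule, having been chosen with their values in view. Gene positions, transcript lengths and 31-base words came from GENCODE 44 on hg38, and promoters from RefSeq on GRCh38.p14, in which all 7 genes matched. Proteins were not analysed here. Depth was 7773325 to 10065633 reads in genes, and edgeR gave a biological coefficient of variation of 3.72% between plates.

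Replicate numbers were not used as pairs: the deviations of samples with the same number correlated at -0.12 to 0.18 over 30 pairs, and 1 pair was over 0.1. That pair was replicate 2 of 0.5 nM and replicate 2 of 5 nM, both among the 3 libraries rich in fibroblast transcripts. Whether they share a source was not tested. The alternatives were a filter at a mean of 50 or none, a pseudocount of 5, TMM scaling, the compared groups alone, a replicate block, edgeR 4.0.16 and DESeq2 1.42.0 on recovered reads, a floor of 1 on the absolute log2 fold change, and fits without each library in turn and without the 3 libraries rich in fibroblast transcripts. Their use on the steps between doses was added after the data were seen. R 4.3.3 and Python 3.11.15 were used.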

Additional observations from a re-analysis of the deposited data

How the results depend on the processing

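The levels in these groups chose the 7 genes, so their counts under the alternatives describe only how the calls depend on the settings. The count of the 7 genes called lower at 500 nM stayed at 7 under every alternative but a mean of at least 50, which left ID4 and SMAD9 untested and 5 called. At 50 nM it was 5, and 4 without DMSO replicate 2, without DMSO replicate 3 or without 50 nM replicate 1, each of which ended the call of ID4, or with a mean of at least 50. With a minimum absolute log2 fold change of 1 the count was 1 at 50 nM (ID4) and 2 in the step between 5 and 50 nM. In the step between 50 and 500 nM, ID4 was not called by DESeq2. Of 664 values of the log2 fold changes of the 7 genes under the alternatives, 0 reversed a called direction and 4 moved by more than the spread of the plates: at 500 nM ID4 was at -1.70 and SMAD9 at -1.53 with a pseudocount of 5, and ID3 at -3.27 without 500 nM replicate 1 and without the 3 libraries rich in fibroblast transcripts. TMM scaling shifted the median of all genes by 0.0035 or less on the log2 scale.

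Counts over all tested genes moved more. At 0.5 nM 11 genes were called, and 32 with no filter, 19 with the compared groups alone, 4 by DESeq2, 6 without the 3 libraries, 5 without 0.5 nM replicate 2 and 0 with the minimum fold. At 5 nM 1053 were called, and 629 by DESeq2. In the step between 0.5 and 5 nM 1076 were called, and 648 by DESeq2 and 708 without 0.5 nM replicate 1. With the minimum fold, 17, 121 and 410 genes were called at 5, 50 and 500 nM, where 1053, 3134 and 4933 were called without it, and 21, 122 and 90 in the 3 steps from low to high dose, where 1076, 2813 and 1934 were called without it. With it, 8 pathway genes were lower and 3 higher at 500 nM. Leaving out each library in turn gave 5 to 14 calls at 0.5 nM, 745 to 1041 at 5 nM, 2553 to 3167 at 50 nM and 4405 to 4989 at 500 nM, 708 to 1155, 2345 to 2887 and 1569 to 1998 in the steps, 45 to 49 pathway genes lower and 24 to 30 higher, and 0, 0, 4 to 5 and 7 of the 7 genes lower by dose. A replicate block gave 14, 1064, 3148 and 4958 calls at 0.5, 5, 50 and 500 nM and 7 of the 7 genes lower at 500 nM, and it changed no call of the 7 genes, so the shared replicate numbers were not read as pairs. The levels of ID4 and SMAD9 at 500 nM rest on 3 to 11 reads a library, which limits their precision.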
